A study of Mus musculus with 9 samples.

Results

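Arginine lies at a branch point of metabolism, and 6 genes that bring it in, make it or use it were followed here, out of 22173 genes in the count tables. They were chosen by symbol and all 6 were found: the arginases Arg1 and Arg2, the inducible nitric oxide synthase Nos2, the arginine-making enzyme Ass1, the polyamine enzyme Odc1 and the cationic amino acid transporter Slc7a2. The cells were wild type mouse neutrophils derived from bone marrow, enclosed as primary cells in GelMA, a light-cured gelatin hydrogel, and held there for 2 days with RPMI medium and 10% fetal bovine serum. The gels had an elastic modulus of 1.5 kPa (low, which served as the control), 2.6 kPa (middle) or 5.7 kPa (high), with 3 libraries at each stiffness. Sex, age and the purity of the cells are not stated in the sources used here. Replicates carry the numbers 1 to 3 in the titles, and no label says whether they were separate mice or cultures, so a p-value here measures the spread between libraries, which may be technical.

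Arginase splits arginine into urea and ornithine, whereas nitric oxide synthase turns it into nitric oxide and citrulline, and the enzymes draw on the same arginine. ARG1 is the cytosolic and ARG2 the mitochondrial arginase. ASS1 begins the remaking of arginine from citrulline, ODC1 turns ornithine into the first polyamine, and SLC7A2 carries arginine across the cell membrane. In myeloid cells, arginase that depletes arginine is known as a means of restraining T cells, and NOS2 as a source of nitric oxide against microbes.

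Levels are given in CPM, counts scaled to 1000000 per library after TMM normalisation. Each library held 13172879 to 19486546 counts and 14042 to 14914 detected genes. All 10 neutrophil markers had counts in every library, and their summed level was 3332 to 12131 CPM in high gels, against 2899 to 21701 CPM in low gels. Replicate 1 stood apart at every stiffness: its neutrophil markers summed to 2899 to 3369 CPM, against 12011 to 21701 CPM in replicates 2 and 3. Of 11 macrophage markers, 10 had counts in every library, the exception being Vsig4. They summed to 4853 to 7579 CPM in high gels, against 7410 to 8149 CPM in low gels, and to 7148 to 8149 CPM in replicate 1, against 4853 to 7463 CPM in replicates 2 and 3. Gpnmb weighed most in that sum, at a mean of 4960 CPM in replicate 1 and 2205 CPM in replicates 2 and 3. Adgre1 and Mrc1 were also higher in replicate 1, and Cd68 was nearly level. Csf1r (702 against 1332 CPM), Mertk, C1qa, C1qb, C1qc and Marco were lower in replicate 1, so the macrophage markers did not move together. The 4 monocyte markers summed to 333 to 476 CPM in replicate 1, against 1131 to 1495 CPM in replicates 2 and 3. The high and low gels did not overlap in the summed markers of eosinophils, basophils and mast cells (10.8 to 30.8 CPM in high, 38.8 to 65.8 CPM in low gels) or of stromal cells (20.1 to 24.2 CPM in high, 31.0 to 42.6 CPM in low gels). They overlapped in those of T and NK cells (0.355 to 2.01 CPM over all libraries), B cells (27.5 to 154 CPM), dendritic cells (46.8 to 82.6 CPM), erythroid cells (226 to 785 CPM) and megakaryocytes (29.9 to 161 CPM). Of all genes tested, taken singly, 6.76% lay wholly lower in high than in low gels. In high against low gels, edgeR with the replicate number as a block called 3 of 10 tested neutrophil markers lower. Of 10 tested macrophage markers it called 2 higher and 4 lower, and of 4 monocyte markers 2 higher and 1 lower. It called 1 of 5 tested dendritic cell markers lower. In each of the eosinophil, basophil and mast cell (6 tested), megakaryocyte (4 tested) and stromal (3 tested) lists, 2 were lower. Markers of T and NK, B and erythroid cells gave no call. Of all genes tested, 6.72% were called higher and 8.73% lower. The part that these differences had in the results below was not tested, and in bulk RNA a change in the number of cells of a type and in the RNA per cell cannot be told apart.

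Stiffer gels went with more RNA of 5 of the 6 genes once libraries were compared within a replicate number. With the replicate number as a block in edgeR, Arg1, Slc7a2, Arg2, Odc1 and Ass1 rose in high against low gels (adjusted p under 0.05 over 12094 genes), and Nos2 did not pass. Across all genes tested, 15.5% were called in this comparison, 6.72% of the genes tested as higher and 8.73% as lower. The median log2 difference of the 6 genes was 0.57, against -0.00 over all genes tested. Without the block, none of the 6 passed edgeR's test, which called 11 genes (0.091% of all genes tested). Arg1, Arg2 and Slc7a2 had an unadjusted p under 0.05 in it, as had 7.72% of all genes. DESeq2 without the block called the same 3, among 257 genes in all. No label says that libraries of equal number belong together, so edgeR's calls over all 9 libraries rest on that choice of fit. Below, "rose" and "fell" are used of an adjusted p under 0.05 with the block, unless another fit is named.

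**Figure D1:**
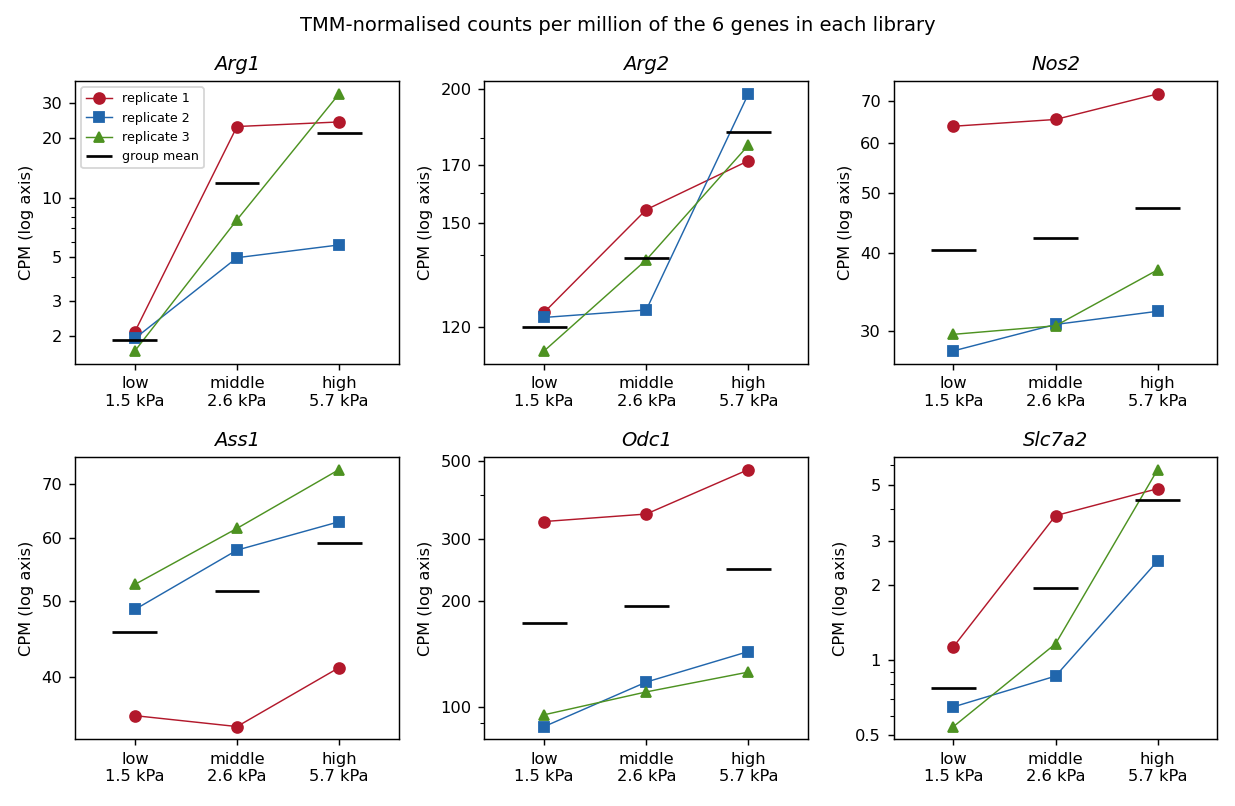
TMM-normalised CPM of each of the 6 genes (log axis, its range set per gene) against gel stiffness, where points are libraries joined by replicate number and bars are group means. Arg1, Arg2 and Slc7a2 lay higher in all 3 high-stiffness libraries than in any low-stiffness library, while Nos2, Ass1 and Odc1 were set apart mainly by replicate 1.

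Slc7a2, which encodes 1 of the carriers of arginine, was scarce at every stiffness, at a mean of 0.775 CPM in low, 1.93 CPM in middle and 4.36 CPM in high gels. It had 1.13, 0.650 and 0.543 CPM in low gels (15, 12 and 9 counts), 3.77, 0.863 and 1.16 CPM in middle gels (51, 17 and 17 counts) and 4.83, 2.49 and 5.76 CPM in high gels (68, 44 and 89 counts), for replicates 1 to 3. The high libraries all lay above the low ones, while the middle libraries overlapped both other groups. With the block the log2 difference of high against low was 2.50 ± 0.41 (SE; edgeR adjusted p = 0.00279), and without it 2.50 ± 0.64 (edgeR adjusted p = 0.287). Within a replicate number the difference of high minus low was 2.10, 1.94 and 3.41 on the log2 scale, so the gene was higher in the high gel in every number. The step from low to middle gels was 1.18 ± 0.44 (edgeR with the block, adjusted p = 0.243) and that from middle to high gels 1.32 ± 0.37 (adjusted p = 0.243), and neither passed.

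Arg1, the arginase of the cytosol, went the same way with a wider scatter. It had 2.11, 1.95 and 1.69 CPM in low gels, 22.8, 4.97 and 7.72 CPM in middle gels and 24.0, 5.77 and 33.3 CPM in high gels. The low libraries were close together, at 28 to 36 counts each, and lay below all 6 libraries of the other stiffnesses, whereas the middle and high libraries overlapped. Middle and high libraries of replicate 2 were the lowest of their groups. Means were 21.0 ± 14.0 CPM in high, 11.8 ± 9.59 CPM in middle and 1.92 ± 0.213 CPM in low gels (SD, n = 3 each). With the block the difference of high against low was 3.24 ± 0.66 on the log2 scale (SE; edgeR adjusted p = 0.0323). Without the block it was 3.45 ± 0.77 (adjusted p = 0.227). The call was lost when low replicate 3 (log2 difference 2.91, adjusted p = 0.118), middle replicate 2 (3.24, adjusted p = 0.0609) or high replicate 1 (3.52, adjusted p = 0.0522) was left out of the edgeR fit with the block. It held without high replicate 3 or low replicate 2, where the log2 difference moved most, to 2.50 and 3.87.

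The steps of Arg1 between stiffnesses had different sizes in the 3 replicate numbers. Each is 1 library against 1 library, so it has no spread, and whether the numbers differed was not tested. From low to middle gels its log2 difference was 3.43 in replicate 1, 1.35 in replicate 2 and 2.19 in replicate 3. From middle to high gels it was 0.08, 0.21 and 2.11 in the same order, so replicates 1 and 2 were almost level between the stiffer gels and replicate 3 was not. Over all 3 numbers, middle against low was 2.41 ± 0.68 and did not pass edgeR's test with the block (adjusted p = 0.205), while DESeq2 with the block called it (adjusted p = 0.0260). High against middle was 0.83 ± 0.55 (edgeR with the block, adjusted p = 0.682).

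Arg2, the mitochondrial arginase, rose in high against low gels by similar amounts in each replicate number. It had 124, 123 and 114 CPM in low gels, 154, 125 and 139 CPM in middle gels and 171, 198 and 177 CPM in high gels. The 3 groups did not overlap, each stiffness lying wholly above the softer one. With the block the difference was 0.60 ± 0.10 on the log2 scale in high against low gels (SE; edgeR adjusted p = 0.00241), and without the block it was 0.60 ± 0.13 (adjusted p = 0.211). Within replicate numbers the difference was 0.47, 0.69 and 0.63. The steps of middle against low (0.21 ± 0.10, edgeR with the block, adjusted p = 0.349) and of high against middle (0.39 ± 0.10, adjusted p = 0.196) did not pass when taken singly.

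Per kilobase of exon, Arg2 stood above Arg1 in 9 of 9 libraries, so Arg1 was the minor arginase RNA at every stiffness. Its share of the arginase RNA (Arg1 over Arg1 plus Arg2, both per kilobase) was 1.61, 1.50 and 1.40% in low gels, 12.4, 3.69 and 5.07% in middle gels and 11.9, 2.72 and 15.3% in high gels. All 6 libraries from stiffer gels lay above the low ones, and middle and high gels overlapped. Arg2 was also above Nos2 per kilobase in 9 of 9 libraries, by a ratio of 5.88 to 18.6, whereas Arg1 exceeded Nos2 in 2 of 9, middle replicate 1 and high replicate 3.

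**Figure D2:**
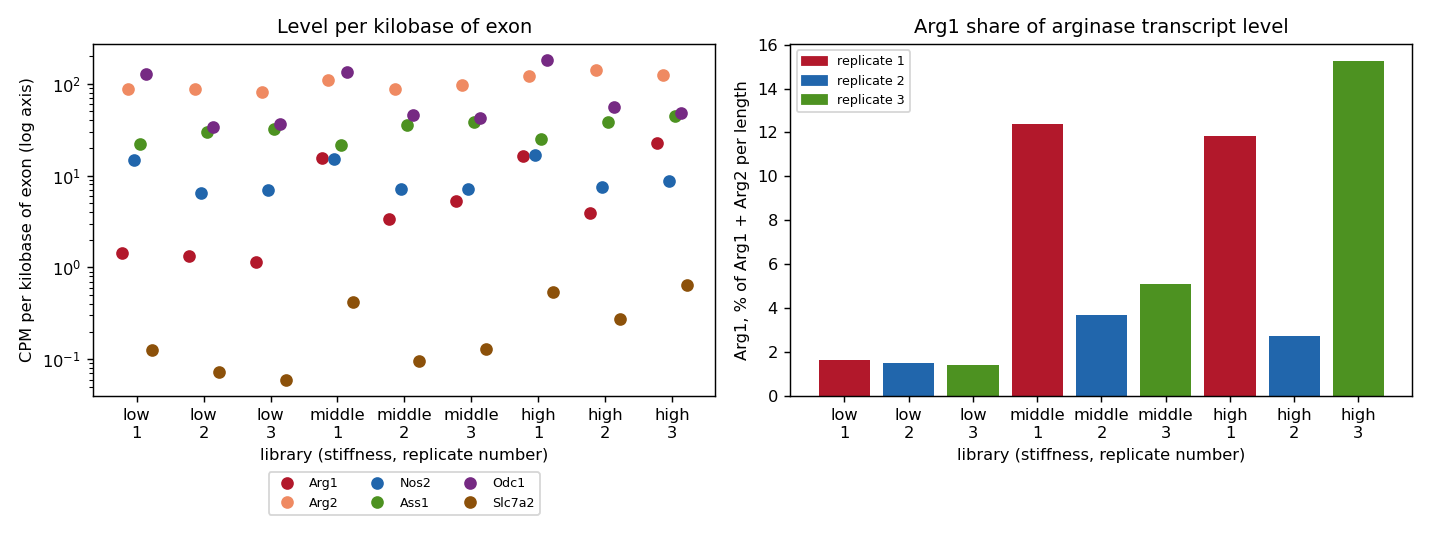
Left, level per kilobase of exon (TMM-normalised CPM per kilobase, log axis) of the 6 genes in each of the 9 libraries; right, the share of Arg1 in the arginase RNA (percent). Arg2 lay above Nos2, Ass1 and Arg1 in every library, and the Arg1 share was at most 1.61% in low gels, against 2.72 to 15.3% in high gels.

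Nos2, the competing user of arginine, did not pass the test in any comparison of stiffness. It had 63.9, 27.9 and 29.7 CPM in low gels, 65.5, 30.8 and 30.6 CPM in middle gels and 71.9, 32.3 and 37.6 CPM in high gels. Replicate 1 was the highest library of each group and the groups overlapped. The log2 difference of high against low was 0.24 ± 0.09 with the block (SE; edgeR adjusted p = 0.0831) and 0.22 ± 0.47 without it (adjusted p = 0.994), and no leave-one-out fit with the block called it. Within replicate numbers it was higher in the high gel each time, by 0.17, 0.21 and 0.34 on the log2 scale.

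Ass1, which remakes arginine from the citrulline that nitric oxide synthase releases, had 35.8, 48.7 and 52.4 CPM in low gels, 34.7, 57.9 and 61.6 CPM in middle gels and 41.2, 62.8 and 73.1 CPM in high gels. Replicate 1 was the lowest library of each group, the reverse of Nos2, and the groups overlapped. With the block Ass1 rose by 0.35 ± 0.09 on the log2 scale in high against low gels (SE; edgeR adjusted p = 0.0224), while without it the difference was 0.37 ± 0.29 (adjusted p = 0.912). The call was lost without low replicate 2, low replicate 3, high replicate 2 or high replicate 3, where the log2 difference was 0.31 to 0.39 and the adjusted p up to 0.135 in edgeR with the block. Within replicate numbers the difference of high minus low was 0.20, 0.37 and 0.48.

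Odc1, which commits ornithine to polyamines, had 337, 88.0 and 95.1 CPM in low gels, 354, 118 and 110 CPM in middle gels and 473, 144 and 126 CPM in high gels. Replicate 1 was the highest library at every stiffness by a wide margin, so the groups overlapped. With the block Odc1 rose by 0.53 ± 0.09 on the log2 scale in high against low gels (SE; edgeR adjusted p = 0.00315), and without it the difference was 0.52 ± 0.75 (adjusted p = 0.986). Within replicate numbers it was 0.49, 0.71 and 0.40. Per kilobase of exon, Odc1 exceeded Arg2 in 3 of 3 libraries of replicate 1 and in 0 of 6 of the others.

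Promoter sequence was at hand for 2 of the 6 genes, Ass1 and Odc1, which both rose in high against low gels and of which replicate 1 held the least Ass1 and the most Odc1. The windows below run from 250 bases before the annotated start to 50 bases after it on the + strand, in RefSeq's GRCm38.p6 annotation (the counts were made on GRCm39). Ass1 spans chr2:31470020-31470319 and Odc1 spans chr12:17544623-17544922. Capitals mark the palindrome CACGTG, an E-box.
Ass1: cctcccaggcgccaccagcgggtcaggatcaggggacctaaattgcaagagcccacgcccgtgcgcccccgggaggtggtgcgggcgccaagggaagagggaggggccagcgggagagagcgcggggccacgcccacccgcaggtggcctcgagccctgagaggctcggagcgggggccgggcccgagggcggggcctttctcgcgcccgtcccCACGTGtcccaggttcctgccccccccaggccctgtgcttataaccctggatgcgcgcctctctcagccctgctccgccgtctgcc
Odc1: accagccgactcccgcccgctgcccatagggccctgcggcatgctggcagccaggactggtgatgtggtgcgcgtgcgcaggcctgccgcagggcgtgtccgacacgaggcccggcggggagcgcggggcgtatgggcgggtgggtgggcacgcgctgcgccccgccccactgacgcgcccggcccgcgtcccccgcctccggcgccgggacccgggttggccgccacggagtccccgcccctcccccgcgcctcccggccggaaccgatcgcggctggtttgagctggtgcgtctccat
Both windows are rich in G and C, at 74% in Ass1 and 78% in Odc1. CACGTG, searched on both strands like every motif here, occurred once in Ass1, 36 bases before the start, and not in Odc1; 7.15% of 32851 mouse promoter windows hold it. TATAAA (13.6% of windows), TTCNNNGAA (8.3%) and TGANTCA (7.81%) matched neither window. A match describes letters in the window and not a bound site.

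**Figure D3:**
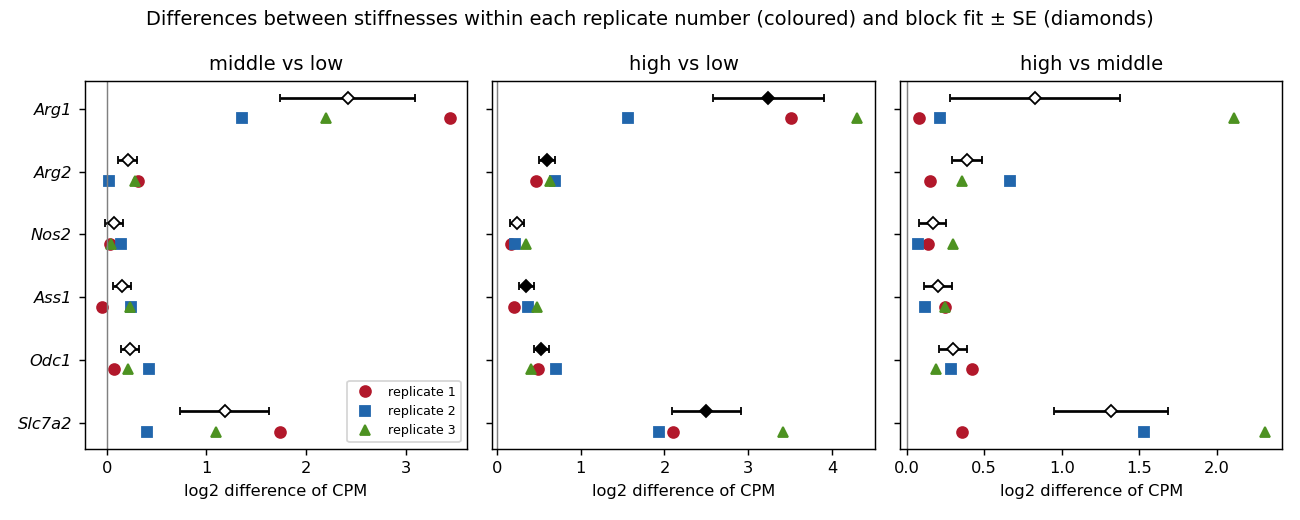
Log2 differences of TMM-normalised CPM within each replicate number (small points) and the edgeR estimate with the replicate block (diamonds with bars of 1 SE, filled where the adjusted p was under 0.05) for the 6 genes; x scales differ between panels. All 6 genes were higher in high than in low gels within all 3 numbers, and filled diamonds appear for high against low for every gene except Nos2.

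All 6 genes were higher in the high than in the low gel within all 3 replicate numbers, as were 23.7% of all genes tested. Low lay below middle and middle below high within every number for 5 of the 6, against 5.1% of all genes; the exception was Ass1, whose middle library of replicate 1 was below its low library. Without regard to number, high and low libraries did not overlap for Arg1, Arg2 and Slc7a2, all higher, against 5.9% of all genes. Middle libraries lay wholly above low ones for Arg1 and Arg2 (3.56% of all genes), and high wholly above middle for Arg2 (2.54%).

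With all 9 libraries, neither of the smaller steps gave an edgeR call for any of the 6 genes. In middle against low gels 0 of 6 passed edgeR with the block, where 1.84% of all genes did, and 3 had an unadjusted p under 0.05, as had 14.6% of all genes; DESeq2 with the block called Arg1. In high against middle gels 0 of 6 passed, where 0.0165% of all genes did, and 4 had an unadjusted p under 0.05, as had 10.5% of all genes; DESeq2 called 0 of 6. Without the block edgeR called 0% of all genes in both comparisons and 0 of the 6, with 1 of them at an unadjusted p under 0.05 in each, as were 2.63% of all genes in middle against low and 1.48% in high against middle gels. A joint test of any difference among the 3 stiffnesses called Arg2, Odc1 and Slc7a2 with the block, against 9% of all genes. Without the block it called 0% of all genes, and Arg1, Arg2 and Slc7a2 had an unadjusted p under 0.05, as had 4.56% of all genes.

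Because replicate 1 stood apart, the comparison was repeated on replicates 2 and 3 alone. The same 5 genes rose in high against low gels, where 26.1% of all genes were called. Slc7a2 had a log2 difference of 2.69 ± 0.41 (edgeR with the block, adjusted p = 0.000156) and Arg1 one of 3.14 ± 0.70 (adjusted p = 0.0336). Odc1 was also called in middle against low gels (0.31 ± 0.09, adjusted p = 0.0443; 6.75% of all genes), and Arg2 (0.51 ± 0.09, adjusted p = 0.00225) and Slc7a2 (1.95 ± 0.38, adjusted p = 0.00505) in high against middle gels (7.37% of all genes). Without the block, edgeR on replicates 2 and 3 called Arg2, Odc1, Slc7a2 and Ass1 in high against low gels, among 3207 of 12214 genes tested. Arg1 (adjusted p = 0.0881) and Nos2 (adjusted p = 0.0769) did not pass there. With replicate 2 or replicate 3 left out instead, edgeR without the block called 0 genes. Without replicate 2, with the block, only Arg2 and Slc7a2 of the 6 passed in high against low gels, and without replicate 3 only Odc1 and Slc7a2. Calls over all genes were also fewer in both fits than the 1869 with all 9 libraries and the block. Without replicate 2 they numbered 262, the fewest of any left-out fit with the block. The loss of calls was thus not particular to the 6 genes.

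Between replicate 1 and replicates 2 and 3, 3 of the 6 genes were called higher, 1 lower and 2 not called. Of all genes, 65.4% were called, 32.9% higher and 32.5% lower, so the number of calls is near that share and no result about the 6. Odc1 averaged 388 ± 74.4 CPM in replicate 1 (SD, n = 3), against 113 ± 20.4 CPM in replicates 2 and 3 (SD, n = 6), a log2 difference of 1.78 ± 0.07 (SE; edgeR adjusted p = 2.48e-08). Nos2 averaged 67.1 ± 4.28 CPM in replicate 1 and 31.5 ± 3.33 CPM in the others, a log2 difference of 1.09 ± 0.07 (adjusted p = 2.64e-07). Ass1 was called lower, by a log2 difference of -0.67 ± 0.08 (adjusted p = 2.22e-05), at 37.2 ± 3.46 CPM in replicate 1 and 59.4 ± 8.60 CPM in the others. Slc7a2 was called higher by 1.01 ± 0.33 (adjusted p = 0.0201), but not without middle replicate 1, where the difference was 0.52, nor without high replicate 2, middle replicate 2 or middle replicate 3. Arg1 (1.07 ± 0.50, adjusted p = 0.115) and Arg2 (0.06 ± 0.08, adjusted p = 0.562) were not called. What a replicate number shares is not given in the labels, so a mouse, a day or a library batch cannot be told apart here.

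The change between high and low gels was then compared between replicate 1 and replicates 2 and 3. Replicate 1 is 1 library at each stiffness, so its own change has no replication and the spread comes from replicates 2 and 3 alone. None of the 6 genes passed this edgeR interaction test, none had an unadjusted p under 0.05, and 8.36% of all genes were called, which does not show that the changes were alike. Its errors were wide for the scarce genes: the difference was 0.11 ± 2.19 for Arg1 and -0.66 ± 0.81 for Slc7a2 on the log2 scale. For Odc1 it was -0.07 ± 0.14 and for Arg2 -0.20 ± 0.15. Without high replicate 3, which leaves 1 high library on either side, Arg1 had a difference of 1.84 (adjusted p = 0.0230).

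Across the 9 libraries the log2 CPM of Nos2 and Odc1 had a Pearson r of 0.98, Nos2 and Ass1 one of -0.76, and Arg1 and Slc7a2 one of 0.93. These points share 3 stiffnesses and 3 replicate numbers. After the mean of each replicate number was removed, all 15 pairs had a positive r, Nos2 and Ass1 one of 0.94. Only differences between stiffnesses are left then, and each member was higher in high than in low gels within every number. A positive r thus largely repeats that order and is no separate result. The genes most like each member among 9167 candidates were found by the same measure over the 9 libraries. They were Fig4, Rhoa and Pla2g4a for Arg1 (r = 0.93 each) and Surf4, P4hb and Mapkapk2 for Arg2 (0.97 to 0.98). For Nos2 they were Tbcc, Zbtb17 and Trnt1 (0.99 to 1.00), and for Ass1 Srgn, Lamc1 and Stk24 (0.99 each). Sppl3, Rrp9 and Btg1 were closest to Odc1 (0.99 to 1.00) and Sfxn3, Spatc1 and Il1f9 to Slc7a2 (0.97 to 0.98). With the replicate means removed, the closest genes were, except Sppl3, different ones: Pstpip1, Got2 and Bicd2 for Arg1 (0.98 each), Trem3, Copg1 and Ptpre for Arg2 (0.99 each), Rhot1, Secisbp2 and Cyp4v3 for Nos2 (0.98 to 0.99), Lcp2, Hexim1 and Dna2 for Ass1 (0.98 to 0.99), Sh2d1b1, Garre1 and Sppl3 for Odc1 (0.98 each), and Spidr, Mms19 and Yrdc for Slc7a2 (0.99 each).

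The counts of related genes below stand beside 15.5% of all genes called in high against low gels with the block, and a share of a list near that is no result about the list. Among the transporters of arginine, 3 of 8 tested rose and none fell. On replicates 2 and 3 alone the same 3 rose and 2 fell, Slc7a7 (log2 difference -0.36 ± 0.11, edgeR adjusted p = 0.0234) and Slc66a1 (-0.37 ± 0.11, adjusted p = 0.0253), which were named after their values were seen. Beside Slc7a2 these were Slc7a1, the broadly expressed cationic amino acid transporter, at 101 CPM in high and 69.7 CPM in low gels (log2 difference 0.53 ± 0.10, edgeR adjusted p = 0.00455), and Slc3a2, the heavy chain of several amino acid exchangers, at 926 CPM in high and 687 CPM in low gels (0.41 ± 0.09, adjusted p = 0.0118). Of arginine synthesis and the urea cycle, 3 of 5 tested genes rose, all of them described above. Asl, which finishes the step that ASS1 begins, averaged 44.0 CPM in high and 41.8 CPM in low gels (0.08 ± 0.11, adjusted p = 0.652). Otc, Cps1 and Nags, the mitochondrial urea cycle enzymes and their activator's synthase, had at most 21 counts in any library and were not tested.

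Of 8 tested genes for nitric oxide synthesis, its cofactor and its control, 0 passed edgeR's test with the block, and 5 had an unadjusted p under 0.05, as had 30.8% of all genes. On replicates 2 and 3 alone 1 of the 8 rose and 2 fell, where 26.1% of all genes were called. The most abundant were Nosip, whose protein binds nitric oxide synthases, at 53.6 CPM in high and 62.7 CPM in low gels (log2 difference -0.23 ± 0.09, adjusted p = 0.0911), and Nos2. Nos3, the endothelial enzyme, reached at most 2 counts and Nos1, the neuronal one, had none in any library, below a floor of 3 counts over all libraries (0.0209 CPM). Of 18 tested polyamine genes, 2 rose and 1 fell. Odc1 and Eif5a, the translation factor that carries the polyamine-derived hypusine (0.30 ± 0.09, adjusted p = 0.0401), rose, and Atp13a2, a lysosomal polyamine exporter, fell (-0.32 ± 0.09, adjusted p = 0.0440). Of 6 tested genes linking ornithine to proline and glutamate, 1 rose, Oat, the ornithine aminotransferase (0.43 ± 0.10, adjusted p = 0.0142).

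Creatine and agmatine genes gave no call in edgeR with the block among 4 tested, 1 of them at an unadjusted p under 0.05. The most abundant, Slc6a8 and Ckb, had log2 differences of -0.19 ± 0.18 and -0.62 ± 0.24. On replicates 2 and 3 alone 2 of the 4 genes fell and 0 rose, where 26.1% of all genes were called. Of 13 genes that charge or modify arginine in proteins, 2 fell: Padi4, which citrullinates histones in neutrophils, averaged 69.9 CPM in high and 102 CPM in low gels (-0.46 ± 0.10, edgeR with the block, adjusted p = 0.0136), and Padi2 fell by 0.91 ± 0.24 (adjusted p = 0.0263). Of 15 known regulators of arginase, Nos2 or Odc1 genes, 3 rose and 3 fell. Nfkb1, an NF-kB subunit (0.80 ± 0.09), Il4ra, the receptor chain for interleukin 4 (0.52 ± 0.11), and Cebpb, a transcription factor of myeloid cells (0.45 ± 0.09), rose. Irf1, an interferon-driven factor, fell (-0.55 ± 0.10, adjusted p = 0.00479), as did Irf8 (-0.70) and Pparg (-1.51), named after their values were seen. Without the block, edgeR called none of the 77 genes tested in these 8 lists, and 11 had an unadjusted p under 0.05, as had 7.72% of all genes.

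**Figure D4:**
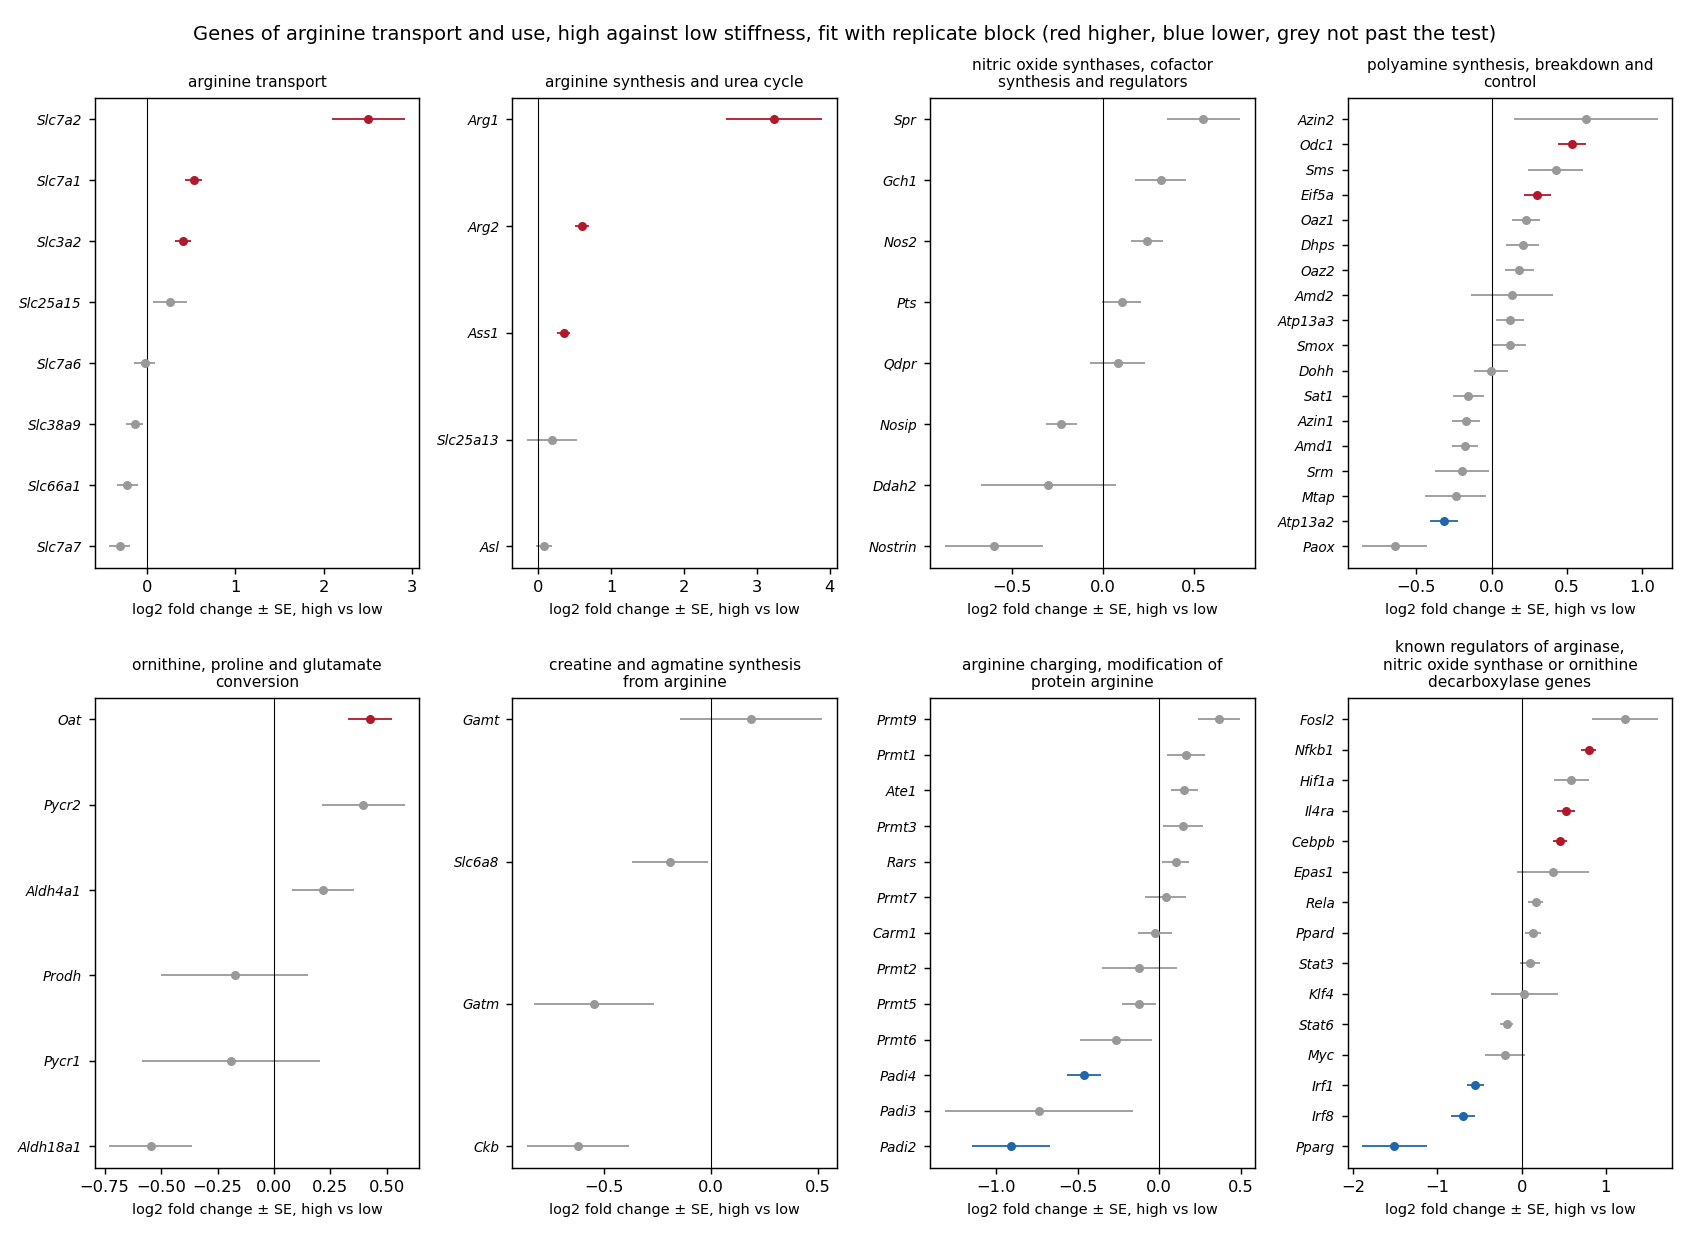
Log2 difference of high against low gels (edgeR with the replicate block) for every tested gene of 8 arginine-related lists, 1 panel a list, with bars of 1 SE; red points rose, blue points fell and grey points did not pass, and x scales differ between panels. With all 9 libraries, transport and synthesis hold 3 genes that rose each and none that fell, whereas the regulators hold 3 that rose and 3 that fell.

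Without the 6 genes, 7 of the 71 tested genes of these lists rose and 6 fell, with a median log2 difference of 0.08. These are 9.86% higher and 8.45% lower, close to the 6.72% and 8.73% of all genes. On replicates 2 and 3 alone 14 rose and 13 fell, 38% of them against 26.1% of all genes. Between replicate 1 and replicates 2 and 3, 29 were called higher and 17 lower, a total share of 64.8% that is close to the 65.4% of all genes. By direction they were 40.8% higher and 23.9% lower, against 32.9% and 32.5% of all genes, a difference that was not tested. Padi4 was called lower, at 24.7 CPM in replicate 1 and 118 CPM in the others (log2 difference -2.23 ± 0.10, adjusted p = 3.16e-08).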

How the data were processed

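The deposited tables give, for each library, whole-number read counts per gene, the FPKM value and the exonic size. The submitters' processing notes name build GRCm39 and the tools DESeq2, HTSeq 0.6.1, HISAT2 2.0.1 and cutadapt 1.9.1; their settings, strandedness included, and the gene annotation used are not stated there. The deposited FPKM equalled counts scaled by total and size, within 0.00500, and only the deposited counts were tested.

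Of 22173 genes, 12094 passed edgeR's filterByExpr (minimum count 10) and were normalised by TMM. CPM values are TMM-normalised. The first test was edgeR 4.0.16 (R 4.3.3) quasi-likelihood on all 9 libraries with group alone, adjusted by Benjamini-Hochberg; the replicate number as a block was the alternative, beside DESeq2 1.42.0, other scalings, no filter and left-out libraries. Deviations from group means of same-numbered libraries correlated in all 9 pairs (r = 0.60 to 0.86), so blocked values are printed. Pairs of replicates 2 and 3 also correlated (r = 0.55 to 0.70), and replicate 1 with the others negatively (r = -0.78 to -0.65). Within replicate 2 and within replicate 3, same-numbered pairs had an r of 0.60 to 0.67, no closer than that. Of 9 libraries, 5 were closest to their own number. Because replicate 1 lay far from both others, this check sets replicate 1 apart but cannot show that replicates 2 and 3 pair by number. The biological coefficient of variation was 0.337 without and 0.115 with the block. SE is the log2 difference over the root of F. No libraries were duplicates. The fits were tested on simulated data.

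Named are the 6 genes, from each list up to 4 called genes, lowest adjusted p first (or the 2 most abundant where none was called), and the 3 most similar genes whose mean reached 5 CPM. The genes and lists were chosen with earlier results of these data known. Some genes of the lists are not reported here and are left out of the lists' counts. Amd1 and Amd2 are near copies whose reads may be split. Figures used matplotlib 3.10.9.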

Additional observations from a re-analysis of the deposited data

How the results depend on the processing

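With the replicate block, genes called numbered 1869 in high against low gels (11 without it), 222 in middle against low (0), 2 in high against middle (0) and 1089 in the joint test (0); of the 6 genes, 5 were called in high against low and 3 in the joint test. DESeq2 without a block called 257, 32 and 1 genes in these comparisons and 3 of the 6 in high against low; with the replicate block it called 1796, 431 and 96, and 5 of the 6 in high against low and 1, Arg1, in middle against low. With only the groups compared in the fit, 0 genes were called in high against low. Without the filter the interaction called 1556 genes, against 1011.

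Leaving out a library or a replicate number gave, without and with the block together, 0 to 3207 genes and 0 to 5 of the 6 in high against low, 0 to 825 and 0 to 1 in middle against low, 0 to 900 and 0 to 2 in high against middle, and 0 to 2535 and 0 to 4 in the joint test. Leaving out a library gave 514 to 1603 genes and 0 to 1 of the 6 for the interaction, and 6766 to 7898 genes and 3 to 5 of the 6 for replicate 1 against the others. The interaction was not fitted without a library of replicate 1, since it then has no estimate.

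A sign turned in 13 leave-one-out values of the stiffness comparisons without the block and in 0 of 252 values of the same comparisons with it. It turned in 6 more for the interaction and for replicate 1 against the others, whose fits hold the replicate number already. Over all leave-one-out fits the log2 difference ran, in high against low, from -0.21 to 0.72 for Nos2 and -0.36 to 1.45 for Odc1; in middle against low, from -0.39 to 0.55 for Nos2 and -0.60 to 1.08 for Odc1; in high against middle, from -0.27 to 0.63 for Nos2, -0.52 to 1.13 for Odc1 and -0.012 to 0.40 for Ass1. For replicate 1 against the others it ran from -0.026 to 0.15 for Arg2. For the interaction it ran from -0.66 to 1.84 for Arg1, -1.14 to 0.044 for Slc7a2, -0.19 to 0.0020 for Nos2 and -0.16 to 0.054 for Odc1. The cause was not tested. Slc7a2 rests on 9 to 15 counts in each low library, which limits its precision.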
